A study of Mus musculus with 6 samples.

Results

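Valproic acid (VPA) was set against no treatment in E14 mouse embryonic stem cells, and the values described here are those of the 4 arrays labelled VPA 1, VPA 2, Control 1 and Control 2, out of 6 arrays in the series. All 19938 genes with a single symbol on the array were taken. Symbols on lists of 56 pluripotency and 120 cell cycle genes were passed over when genes were named by expression level. A gene described by name can still have such a role. VPA cells had 0.5 mM VPA in their medium for 16 h. Control cells were untreated, carry the same time label of 16 h, and no vehicle is named for them. The other arrays, 2 in number, come from cells given 0.2 mM sodium butyrate (NaBu) for 16 h and entered the estimate of the spread, the mean level of each gene and the check of the replicate numbers, not the differences. Every group was grown with serum and leukemia inhibitory factor (LIF, the cytokine that maintains mouse stem cells) on primary embryonic fibroblasts stopped from dividing with mitomycin C. Total RNA was extracted, so RNA of these feeder cells can be part of each sample, and E14 is 1 cell line. The labels number the replicates 1 and 2 without saying whether they were separate cultures, and p-values here measure only the spread between these samples.

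VPA is a branched short-chain fatty acid used as an anticonvulsant that also inhibits class I and IIa histone deacetylases. These enzymes remove acetyl groups from histone tails and act within corepressor complexes, so their inhibition raises histone acetylation and alters transcription in both directions. In embryonic stem cells such inhibitors are known to disturb self-renewal and to open genes of differentiated cells.

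The labelled cell type was checked against 10 embryonic stem cell markers, and all 10 lay above the median gene on every array. Their summed level, as log2, was 14.63 to 14.80 in control and 14.44 to 14.52 in VPA arrays. In VPA minus control, 9 of the 10 lay below 0 inside both replicate numbers. Their median difference was -0.30, with -0.44 in number 1 and -0.29 in number 2. Of 25 feeder fibroblast markers, 14 lay above 0 and 11 below 0 in VPA minus control, and their summed level was 13.10 to 13.44 in control and 12.86 to 13.60 in VPA arrays. RMA values have no zero, and the dimmest feeder marker had a log2 value of 2.67 to 2.95 over the 4 arrays. Arrays of the same replicate number deviated together from their group means (r = 0.558 across genes between control and VPA), and the difference inside each number is therefore printed beside the pooled one. In bulk RNA, fewer cells of a type and less RNA per cell cannot be told apart.

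No gene passed the test. With limma, 0 of 19938 genes (0.0%) had an adjusted p under 0.05, and the smallest adjusted p was 0.964, or 0.201 with the replicate number as a block. At an unadjusted p under 0.05, 547 genes (2.74%) were higher and 434 (2.18%) lower with VPA. The block gave 1438 and 1198. Without Control 1 these counts were 198 and 138, and without VPA 1 they were 258 and 246. After median centring of each array they were 450 and 472, and with the dimmer genes below the median level left out 237 and 290, so that lower genes outnumbered higher ones in both of these settings. All intervals below are 95% intervals of the pooled difference from the limma fit without the block, unless the block is named. They are not adjusted for the choice of genes by these same values. For a gene picked by its difference, an interval without 0 or groups apart is no separate support. Differences between replicate numbers add to the width of the intervals.

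Inside the replicate numbers, a difference of 0.5 or more on the log2 scale in the same direction in both was met by 77 genes higher (0.386%) and 59 genes lower with VPA (0.296%). After median centring the counts were 57 and 74, so which direction held more genes turned with the scaling. The pooled difference of the higher genes ran from 0.52 to 1.32 with a median of 0.69, and that of the lower genes from -0.51 to -1.39 with a median of -0.73. Of these 136 genes, 108 had the larger difference in number 1. A difference of at least 1 was found in 37 of the 136 genes in number 1 and in 0 of them in number 2. Number 1 alone held 971 genes higher and 707 lower by 0.5 or more, against 253 and 176 in number 2. Only 5 genes were higher by 0.5 in number 1 and lower by 0.5 in number 2, and 9 were the reverse. Across genes the differences of the 2 numbers correlated with r = 0.345, where genes are not independent replicates. Control and VPA arrays did not overlap in 121 of the 136 genes. Among all genes 6920 (34.7%) did not overlap, so separation of 2 arrays from 2 arrays is common here. Among the values just inside the threshold were 0.501 in Ret, a receptor tyrosine kinase, and -0.504 in Qtrt1, a subunit of tRNA-guanine transglycosylase, each as the smaller difference of both numbers. Among those just outside were Slc7a8 (0.499), Epha7 (0.499) and Zc3h7b (-0.499).

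**Figure D1:**
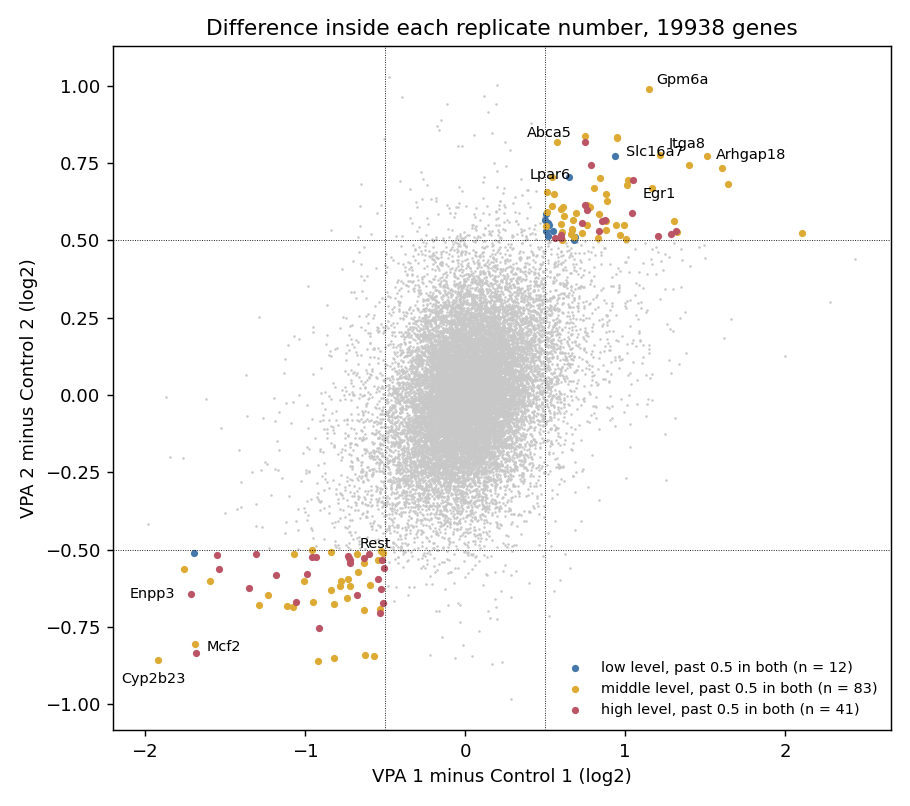
Each point is 1 of 19938 genes, with VPA 1 minus Control 1 (log2) on the horizontal and VPA 2 minus Control 2 (log2) on the vertical axis; coloured points are the 77 higher and 59 lower genes past 0.5 in both, by level band, and dotted lines mark 0.5 and -0.5. The horizontal spread is wider than the vertical one, and the coloured points extend further on the horizontal axis.

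Genes were then split into 3 bands of 6646 by their mean log2 value over the 6 arrays, with the limits at 4.46 and 7.10. The brightness of a probeset depends on its probes as well as on RNA, so these are bands of signal. The low band held 11 genes past 0.5 in both numbers that were higher and 1 that was lower with VPA, the middle band 50 and 33, and the high band 16 and 25. After median centring they were 4 and 1, 41 and 37, and 12 and 36 in the same order, an alternative added after the values were seen. With bands set by the NaBu arrays alone, which took no part in the difference, the counts were 13 and 1, 49 and 31, and 15 and 27. In the high band 38.5% of genes lay below 0 in both numbers and 29.5% above, against 20.4% below and 31.3% above in the low band. The median difference was 0.02 in the low, 0.03 in the middle and -0.02 in the high band. Between the control arrays the standard deviation (SD) across genes of the difference was 0.215 in the low, 0.366 in the middle and 0.322 in the high band. VPA 1 minus Control 1 had SDs of 0.220, 0.344 and 0.310 in the same order, and VPA 2 minus Control 2 had 0.197, 0.225 and 0.185. In number 1, then, the spread of the treatment difference was close to that between the untreated arrays in each band.

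**Figure D2:**
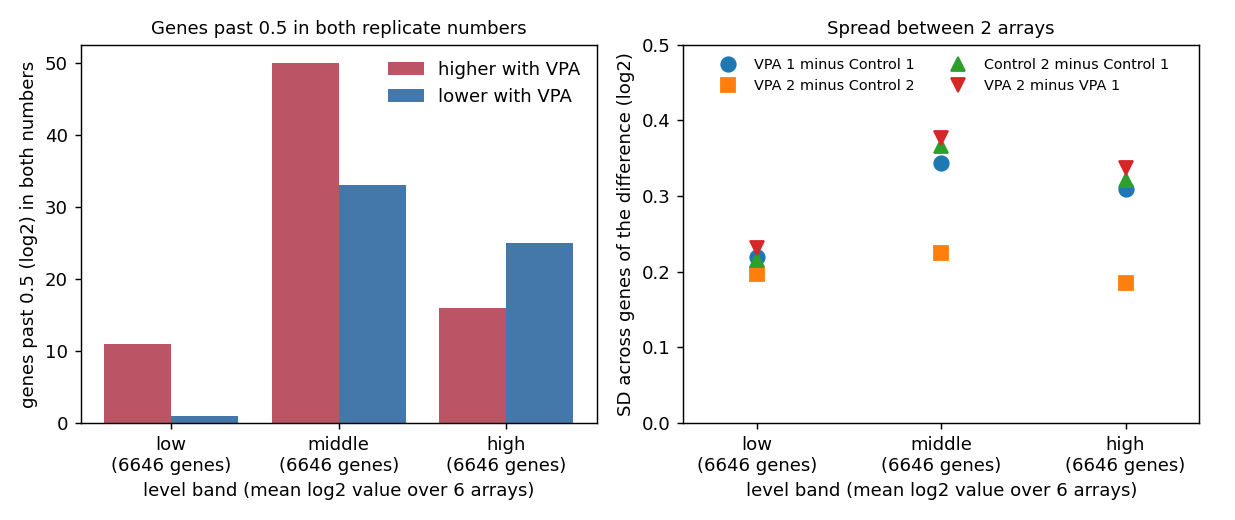
Left, bars count the genes past 0.5 (log2) in both replicate numbers in each level band, higher or lower with VPA; right, points give the SD across genes of the difference between 2 arrays (log2) in the same bands. Higher genes outnumber lower ones in the low (11 against 1) and middle band (50 against 33) but not in the high band (16 against 25), on the deposited values; after median centring the counts are 4 against 1, 41 against 37 and 12 against 36. The SD of VPA 2 minus Control 2 is the smallest in each band.

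In the high band the genes that stood highest with VPA in both numbers encode membrane lipid transporters, a lipid receptor, an immediate early factor and an RNA-binding protein. Abca5, an ATP-binding cassette transporter of endosomal and lysosomal membranes, had log2 values of 7.08 and 7.02 in Control 1 and 2 and of 7.83 and 7.84 in VPA 1 and 2. Each VPA array lay above each control array, and the arrays of a group lay close together. The difference was 0.75 in number 1 and 0.82 in number 2, and 0.78 pooled (interval 0.40 to 1.17), which is 1.72-fold. Lpar6, a receptor for lysophosphatidic acid, had 7.79 and 7.99 in control and 8.58 and 8.74 in VPA arrays. The groups again did not overlap, with 0.79 and 0.74 inside the numbers and 0.77 pooled (interval 0.33 to 1.20). Atp8a1, a flippase that moves phospholipids to the inner leaflet of membranes, had 6.995 and 6.81 in control and 7.76 and 7.41 in VPA arrays, a pooled difference of 0.68 (interval 0.29 to 1.07).

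Egr1, a zinc finger factor switched on within minutes by growth signals, had 6.81 and 7.48 in control and 7.86 and 8.17 in VPA arrays. Both VPA arrays were above both control arrays, but Control 2 lay nearer to VPA 1 than to Control 1. Egr1 differed by 1.05 and 0.70 inside the numbers and by 0.87 pooled (interval 0.17 to 1.58). Cpeb4 binds cytoplasmic polyadenylation elements in messenger RNA and had 7.05 and 7.20 in control and 7.80 and 7.81 in VPA arrays. Its groups were apart, with 0.75 and 0.61 inside the numbers and 0.68 pooled (interval 0.15 to 1.21).

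Among high-band genes that stood lowest with VPA were a guanine nucleotide exchange factor, membrane scaffolds, an ectoenzyme and a DNA repair protein. Mcf2, an exchange factor first known as an oncogene, had 8.17 and 7.11 in control and 6.49 and 6.28 in VPA arrays. Control 1 was the highest by far, and both VPA arrays lay below both control arrays, with -1.68 and -0.83 inside the numbers and -1.26 pooled (interval -2.28 to -0.24). Epb41l4a, of the band 4.1 family that links membranes to the cytoskeleton, had 7.83 and 7.62 in control and 6.92 and 6.86 in VPA arrays. Its difference was even between numbers, -0.91 and -0.75, and -0.83 pooled (interval -1.28 to -0.38).

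Pdzd4, a PDZ domain protein, had 7.83 and 7.71 in control and 6.77 and 7.04 in VPA arrays, with a pooled difference of -0.86 (interval -1.33 to -0.40). Rdm1, a RAD52-motif protein linked to DNA repair, had 8.03 and 7.79 in control and 7.35 and 7.15 in VPA arrays, a pooled difference of -0.66 (interval -1.003 to -0.32) with -0.67 and -0.65 inside the numbers. Neither gene had overlapping groups. Enpp3, an ectoenzyme that splits extracellular nucleotides, had 8.82 and 9.22 in control and 7.11 and 8.57 in VPA arrays. VPA 1 was the lowest array by far, with a difference of -1.71 in number 1 against -0.64 in number 2, and the pooled interval was -2.32 to -0.03.

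**Figure D3:**
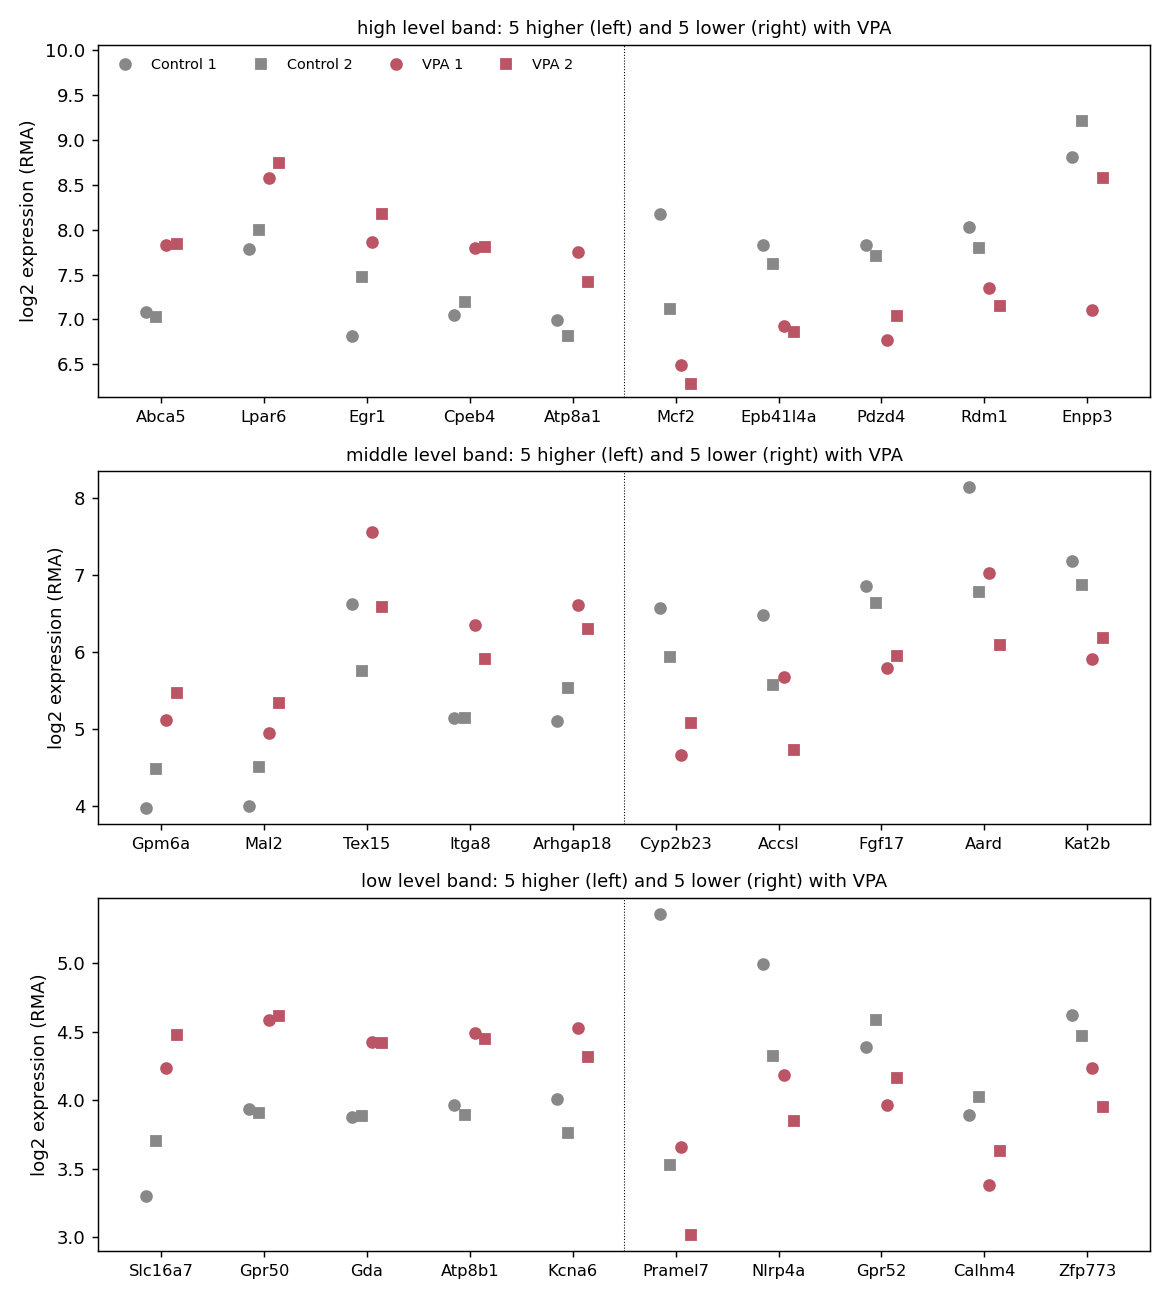
Points are log2 expression values of single arrays (grey for control, red for VPA, circles for number 1 and squares for number 2) for the 5 highest and 5 lowest genes of each level band by the smaller difference of both numbers. In the high band Abca5 stands at 7.02 to 7.08 in control and 7.83 to 7.84 in VPA arrays, and in the low band Pramel7 shows overlapping groups, with Control 2 at 3.53 and VPA 1 at 3.66.

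Among the genes past 0.5 in both numbers, the largest pooled differences of either sign were in the middle band. Gpm6a, which leads that band by the smaller difference of both numbers, is a membrane glycoprotein of neurons and had 3.97 and 4.48 in control and 5.11 and 5.47 in VPA arrays. All VPA values lay above all control values, by 1.15 in number 1 and 0.99 in number 2, and the pooled difference of 1.07 (interval 0.43 to 1.71) is 2.10-fold. Mal2, a proteolipid of apical transport in epithelial cells, had 3.997 and 4.501 in control and 4.95 and 5.33 in VPA arrays, 0.89 pooled (interval 0.19 to 1.59). Number 2 was the higher array of each group in both genes, and the difference inside the numbers was nearly equal.

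Itga8, an integrin alpha chain, had 5.14 in both control arrays and 6.36 and 5.91 in VPA arrays. Its groups stood well apart, with 1.22 and 0.78 inside the numbers and 1.00 pooled (interval 0.59 to 1.40). Arhgap18, a GTPase-activating protein, had 5.10 and 5.53 in control and 6.61 and 6.30 in VPA arrays. Its groups did not overlap, and it differed by 1.51 and 0.77 inside the numbers and by 1.14 pooled (interval 0.35 to 1.93), or 2.21-fold. Tex15, needed in male germ cells, had 6.62 and 5.75 in control and 7.57 and 6.58 in VPA arrays. Here VPA 2 lay below Control 1, so the groups overlapped although each number differed alike, by 0.95 and 0.83, and the pooled interval was -0.27 to 2.05.

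On the lower side of the middle band, Cyp2b23, a cytochrome P450, had 6.58 and 5.93 in control and 4.66 and 5.08 in VPA arrays. It had the most negative pooled difference of the 136 genes, -1.39 (interval -1.98 to -0.80), 2.62-fold lower with VPA, from -1.92 and -0.86 inside the numbers. Kat2b, a histone acetyltransferase of the GCN5 family, had 7.19 and 6.87 in control and 5.90 and 6.19 in VPA arrays. Its groups did not overlap, and the difference was -1.28 and -0.68 inside the numbers and -0.98 pooled (interval -1.46 to -0.51).

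Fgf17, a fibroblast growth factor of the Fgf8 subfamily, had 6.86 and 6.63 in control and 5.79 and 5.94 in VPA arrays, -0.88 pooled (interval -1.38 to -0.38). Each VPA array was below each control array. In Accsl, a relative of plant ACC synthases, control values of 6.48 and 5.57 stood beside VPA values of 5.67 and 4.72, and in Aard 8.14 and 6.78 stood beside 7.03 and 6.10. In both genes VPA 1 lay above Control 2, so the groups overlapped, while inside the numbers Accsl differed by -0.82 and -0.85 and Aard by -1.11 and -0.68.

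In the low band 11 of the 12 genes past 0.5 were higher with VPA, and 4 of 5 after median centring. Slc16a7, a carrier of lactate, pyruvate and ketone bodies, had 3.30 and 3.70 in control and 4.24 and 4.47 in VPA arrays. Control and VPA arrays were apart, by 0.94 and 0.77 inside the numbers and 0.85 pooled (interval 0.39 to 1.31). Gpr50, an orphan receptor related to melatonin receptors, had 3.93 and 3.91 in control and 4.58 and 4.62 in VPA arrays, 0.68 pooled (interval 0.23 to 1.13). Gda, which deaminates guanine, had 3.88 and 3.89 against 4.43 and 4.42. Atp8b1, a flippase of bile canaliculi, had 3.97 and 3.89 against 4.49 and 4.44, and the potassium channel Kcna6 had 4.01 and 3.76 against 4.53 and 4.31. In each of these 5 genes both VPA values stood above both control values.

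Of the 5 low-band genes that stood lowest, Pramel7 alone passed 0.5 in both numbers. Pramel7, a PRAME family member of early embryos, had 5.35 and 3.53 in control and 3.66 and 3.02 in VPA arrays. Control 1 stood far above the other 3 arrays and the groups overlapped, with differences of -1.70 and -0.51 inside the numbers. Nlrp4a, an oocyte gene of the NLR family, differed by -0.81 and -0.47, Gpr52 by -0.42 and -0.43, Calhm4 by -0.51 and -0.39, and the zinc finger gene Zfp773 by -0.39 and -0.51. Those 4 genes had groups that did not overlap.

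Functions were read from gene lists other than those of pluripotency and the cell cycle, though a member can still have such a role. Lists were described by counts, a median or single members, and counts and medians stand beside those of all genes. Among all genes 32.0% lay above 0 and 28.0% below 0 in both numbers, and the median difference was 0.01. In the lists described below, no member passed 0.5 in both numbers unless a number or the gene is given. Among lists not described below, the Hippo pathway list held 1 member past 0.5 that was higher with VPA. The myosin and cytochrome P450 lists held 1 each that was lower.

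**Figure D4:**
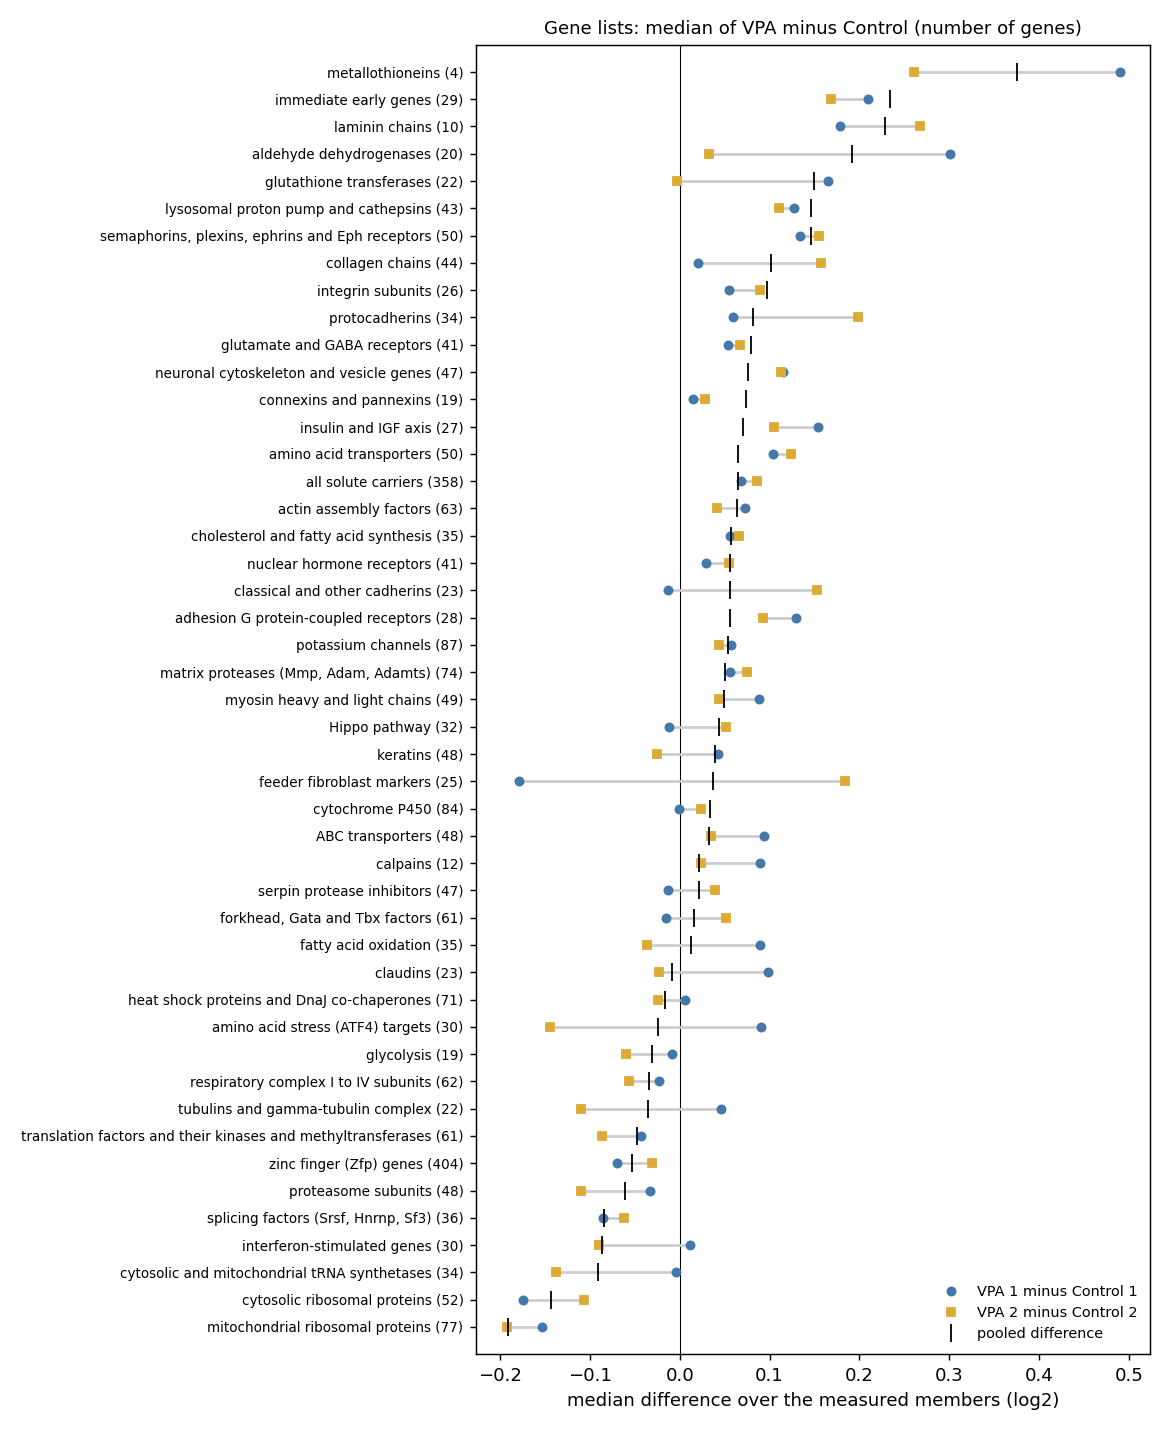
For each gene list other than those of pluripotency and the cell cycle, with its number of measured genes, medians over members are plotted in log2 units. They are of VPA 1 minus Control 1 (circle), of VPA 2 minus Control 2 (square) and of the pooled difference (bar). Metallothioneins stand highest at 0.38 pooled and mitochondrial ribosomal proteins lowest at -0.19, and the feeder fibroblast markers lie on opposite sides of 0 in number 1 (-0.18) and number 2 (0.18).

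Transporters of amino acids stood more often above than below 0, with members past 0.5 in both directions. Of 50 measured members, 25 lay above 0 and 3 below 0 in both numbers, the median was 0.06 (0.10 and 0.12 inside the numbers, and 0.08 to 0.12 when 1 array was left out), and 3 members were past 0.5 higher and 1 lower. Slc7a8, the LAT2 exchanger of neutral amino acids, had 4.504 and 4.54 in control and 6.16 and 5.04 in VPA arrays. Each VPA array was above each control array, but VPA 1 by far more, 1.66 against 0.50, for 1.08 pooled (interval 0.21 to 1.95). Slc7a7, the y+LAT1 exchanger, had 8.63 and 8.79 in control and 9.83 and 9.30 in VPA arrays, 0.86 pooled (interval 0.40 to 1.32).

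Slc7a3, the cationic amino acid transporter CAT3, went the other way, with 11.43 and 10.77 in control and 9.88 and 10.25 in VPA arrays. Its groups did not overlap, and the difference was -1.55 and -0.52 inside the numbers and -1.03 pooled (interval -1.84 to -0.23). Slc6a15, a carrier of branched-chain amino acids, was high on Control 1 alone, at 6.94 against 5.67 in Control 2 and 5.81 and 5.79 in VPA arrays, and its pooled difference of -0.50 became 0.13 without Control 1. Among all 358 solute carriers 165 (46.1%) lay above 0 and 67 (18.7%) below 0 in both numbers, with 5 past 0.5 higher and 3 lower. Of 87 potassium channels 34 lay above and 14 below 0 in both, with Kcna6 past 0.5, and Kcnn3, a calcium-activated channel, had 4.84 and 4.97 in control and 5.69 and 5.42 in VPA arrays. Of 48 ABC transporters 20 lay above and 8 below 0 in both, with Abca5 and the peroxisomal fatty acid transporter Abcd2 (0.72 pooled, interval 0.02 to 1.42) past 0.5.

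The lysosomal list, made of proton pump subunits, cathepsins and membrane proteins, stood slightly above 0 in both numbers. Lysosomes acidify with a multi-subunit proton pump and digest with cathepsins, and many of their genes carry CACGTG, the core of the site bound by the factor TFEB. Of 43 measured members 34 lay above 0, 28 (65.1%) in both numbers and 3 (7.0%) below 0 in both. The median was 0.15, with 0.13 and 0.11 inside the numbers and 0.10 to 0.18 when 1 array was left out. Atp6v0d1, a pump subunit, had 9.54 and 9.67 in control and 10.06 and 9.90 in VPA arrays, 0.38 pooled (interval 0.07 to 0.68). Atp6v0b, which forms part of the membrane ring, had 9.40 and 9.62 against 9.90 and 9.84. In both genes the VPA arrays lay above the control arrays. At the other end, Atp6v0a4, a subunit of kidney and inner ear, stood at -0.24 (0.056 without VPA 1) and Atp6v1g1 at -0.13. Lamp1, a main membrane protein of lysosomes named after its values were seen, had 10.44 in both control and 10.65 in both VPA arrays.

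In promoter windows from 250 bases before to 50 after the start (RefSeq, GRCm38.p6), CACGTG was found in 8 of 33 lysosomal genes with a promoter (24.2%), against 8.38% of all 15614 genes with one and 11.7% of the high band. It reads the same on both strands. The 80 bases before the start of the 2 genes with several copies there are printed 5′ to 3′ with CACGTG in capitals, to show how close the copies lie to each other. Lamp1 lies on the plus strand at chr8:13159081-13159160 and Atp6v0b on the minus strand at chr4:117887330-117887409.
Lamp1: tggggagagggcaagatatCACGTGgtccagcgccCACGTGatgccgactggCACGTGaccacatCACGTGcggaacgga
Atp6v0b: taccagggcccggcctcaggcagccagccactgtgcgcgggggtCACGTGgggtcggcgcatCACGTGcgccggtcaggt
Lamp1 held 4 copies and Atp6v0b 2. A match describes the letters of the window and not a bound site.

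Metallothioneins, small proteins that bind zinc and copper, stood above 0 in both numbers in all 4 members, with a median of 0.38, 0.49 in number 1 and 0.26 in number 2. Mt1 had 11.26 and 11.005 in control and 11.86 and 11.43 in VPA arrays, apart from each other by 0.51 pooled (interval 0.08 to 0.94). Mt2 had 12.16 and 11.71 against 12.57 and 11.997, where VPA 2 lay below Control 1. Mt3, first known from brain, had 6.64 and 6.39 against 7.21 and 6.63, where VPA 2 also lay below Control 1, and Mt4 had 3.54 and 3.52 against 3.62 and 3.72. Without single arrays the median ran from 0.15 (without VPA 1) to 0.67 (without VPA 2).

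The metal response element of these genes has the core TGCACNC or TGCGCNC, searched on both strands as a motif added after the values were seen, and it was found in 4 of 4 metallothionein promoters and in 30.7% of all promoters. Some matches lay past the RefSeq start and so outside the bases printed here. These were at 2 and 20 bases in Mt1, at 4 in Mt2 and at 27 in Mt3, where it was the only match. The 80 bases before the start of Mt1 (plus strand, chr8:94179009-94179088) and Mt2 (plus strand, chr8:94172538-94172617) are shown because these members have the higher signal of the list on every array; capitals mark the core, which in Mt2 is read on the opposite strand.
Mt1: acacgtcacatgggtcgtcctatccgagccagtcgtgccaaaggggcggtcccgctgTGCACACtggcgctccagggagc
Mt2: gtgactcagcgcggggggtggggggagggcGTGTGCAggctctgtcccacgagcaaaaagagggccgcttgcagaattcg
Aldehyde dehydrogenases, which oxidise retinal, fatty and other aldehydes, had 9 of 20 members above and 1 below 0 in both numbers, with a median of 0.30 in number 1 and 0.03 in number 2, and of 0.03 without VPA 1. Aldh1a2, which makes retinoic acid, had 5.35 and 4.86 in control and 6.95 and 5.59 in VPA arrays. The groups were apart, with 1.60 and 0.73 inside the numbers and 1.17 pooled (interval 0.13 to 2.21), past 0.5 in both. The next highest, Aldh3b3, is uncertain, as its 3 probesets ran from -0.00 to 0.56.

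Across all genes past 0.5, the promoters of the higher genes held GGGCGG, the core of the GC box, in 60.3% of 63 with a promoter and those of the lower genes in 36.2% of 47, beside 49.9% of all genes. The median count of CG was 19 in the higher, 10 in the lower and 15 in all promoters. TATAAA was in 7.94% of the higher, 17.02% of the lower and 12.1% of all promoters. These shares move with level as well, since GGGCGG was in 18.1% of the low, 58.7% of the middle and 70.6% of the high band. Both the higher and the lower genes lay mostly in the middle and high bands. The share of all genes is therefore not matched to the level of either.

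Immediate early genes, which respond first to growth factors and stress, stood above 0 in both numbers in 19 of 29 members (65.5%) and below in 2. The median was 0.23, with 0.21 and 0.17 inside the numbers, and it ran from 0.07 (without VPA 2) to 0.38 (without VPA 1). Besides Egr1, the one past 0.5, Dusp4, a phosphatase that turns MAP kinases off, had 7.41 and 8.12 in control and 8.36 and 8.51 in VPA arrays. Zfp36, which binds AU-rich messenger RNA and speeds its decay, had 6.36 and 7.30 in control and 7.32 and 7.64 in VPA arrays. In both genes Control 1 was the lowest array by far, the groups did not overlap, and the interval without the block included 0. With the block it was 0.32 to 1.02 in Dusp4 and 0.26 to 1.03 in Zfp36, at a limma adjusted p of 0.202 in both.

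Nuclear hormone receptors held values of both signs. Of 41 members 19 (46.3%) lay above and 12 (29.3%) below 0 in both numbers, with a median of 0.06 (0.03 and 0.05 inside the numbers), which was 0.02 without Control 1 and 0.09 without Control 2. Vdr, the vitamin D receptor, had 4.70 and 4.72 in control and 5.38 and 5.29 in VPA arrays, 0.62 pooled (interval 0.33 to 0.90). Esr2, the estrogen receptor beta, had 4.52 and 4.37 against 5.30 and 4.98, 0.69 pooled (interval 0.31 to 1.07), and these were the members past 0.5. Their groups were clearly apart. At the other end stood the receptors of the high band Nr5a2 (-0.50 pooled, interval -1.11 to 0.12) and Rarg, a retinoic acid receptor (-0.44, interval -0.91 to 0.03).

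In the insulin and IGF list 13 of 27 members lay above and 7 below 0 in both numbers. The median was 0.07, and -0.0011 without VPA 2. Igf2r, the receptor that carries IGF2 and mannose 6-phosphate-tagged enzymes to lysosomes, had 8.93 and 9.25 in control and 9.78 and 9.81 in VPA arrays, 0.71 pooled (interval 0.20 to 1.22), and was the one past 0.5. Igfbp6, which binds IGF2, stood on Control 1 alone below the rest, at 5.06 against 6.08 in Control 2 and 6.11 and 6.26 in VPA arrays. The RNA-binding proteins of the list stood lowest. Igf2bp1 had 10.83 and 10.33 in control and 10.17 and 9.86 in VPA arrays, -0.57 pooled (interval -1.06 to -0.08), and Igf2bp3 had 8.93 and 8.44 against 8.29 and 8.05, -0.51 pooled (interval -1.02 to -0.00). Both had groups that did not overlap.

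Among 50 semaphorins, plexins, ephrins and Eph receptors 28 (56.0%) lay above and 6 below 0 in both numbers, with a median of 0.15, 0.13 and 0.15 inside the numbers, and 0.09 without Control 1. Epha1, an Eph receptor of epithelia, had 5.03 and 5.80 in control and 6.19 and 6.22 in VPA arrays, and Sema4f had 5.50 and 5.65 against 6.41 and 6.001. Sema5b, a semaphorin with thrombospondin repeats, stood lowest, at 6.32 and 6.23 in control and 5.81 and 5.79 in VPA arrays (-0.48 pooled, interval -0.75 to -0.21). All 3 had groups that did not overlap.

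Of the 10 laminin chains, which build basement membranes, 8 lay above 0 in both numbers, with a median of 0.23. Lamb3 had 5.13 and 5.38 in control and 5.98 and 5.61 in VPA arrays, and Lamb2 had 7.51 and 7.76 against 8.25 and 8.02. In both genes VPA 1 was the highest array. Collagen chains lay above 0 in 19 and below 0 in 5 of 44 in both numbers, with a median of 0.02 in number 1 and 0.16 in number 2, and of 0.02 without VPA 2 and 0.19 without VPA 1. Col11a1, a fibrillar chain of cartilage, was the one past 0.5, with 5.39 and 5.38 in control and 6.22 and 5.96 in VPA arrays (0.71 pooled, interval 0.38 to 1.04). Of 26 integrin subunits 12 lay above and 5 below 0 in both numbers, led by Itga8, the one past 0.5, and Itga4 had 3.77 and 3.64 against 4.12 and 4.34. Other adhesion and protease lists had medians nearer to 0, from -0.01 in claudins to 0.08 in protocadherins. Above 0 were 24 of 34 protocadherins, 16 of 23 cadherins, 14 of 19 connexins and pannexins and 51 of 74 matrix proteases. Serpins had 24 of 47 and claudins 11 of 23 above 0, beside 53.0% of all genes. The feeder fibroblast markers, of which several are collagens, had a median of -0.18 in number 1 and 0.18 in number 2, and 5 of 25 lay above and 1 below 0 in both. Their part in the collagen and laminin values was not tested.

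Cytoskeletal genes held members at both ends. Actin assembly factors lay above 0 in 28 and below 0 in 16 of 63 in both numbers. Cobl, which nucleates actin filaments, had 8.45 and 8.24 in control and 7.46 and 7.67 in VPA arrays, -0.78 pooled (interval -1.15 to -0.41), and was past 0.5. Enah, which elongates filaments, had 9.90 and 9.44 against 9.23 and 8.96, while the nucleator Spire1 had 6.77 and 6.94 against 7.47 and 7.43. None of these 3 had overlapping groups. Krt8 and Krt18, the paired keratins of simple epithelia, were low on Control 1 alone. Krt8 had 6.98 on Control 1 and 8.16 to 8.37 on the other 3 arrays, and Krt18 had 6.47 on Control 1 and 7.487 to 7.497 on them. Capn6, a calpain without protease activity that binds microtubules, had 5.23 and 5.22 in control and 6.24 and 5.91 in VPA arrays, 0.86 pooled (interval 0.51 to 1.20), past 0.5 in both numbers. Actb stood at 0.04, with 13.33 and 13.26 in control and 13.40 and 13.27 in VPA arrays, and at -0.0169 without VPA 1.

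Neuronal cytoskeleton and vesicle genes lay above 0 in 23 (48.9%) and below 0 in 11 of 47 in both numbers, with a median of 0.08 (0.11 inside each number) that was 0.18 without Control 2. Nnat, an imprinted gene of the developing brain, had 5.23 and 5.22 in control and 6.87 and 5.90 in VPA arrays, 1.16 pooled (interval 0.43 to 1.89), and was past 0.5. Nefm, a neurofilament chain, was raised on VPA 1 alone, at 6.84 against 4.71 to 4.84 on the other 3 arrays. Stmn3, of the stathmin family that destabilises microtubules, was past 0.5 on the lower side at -0.66, but another of its probesets stood at -0.06. Rest, the repressor of neuronal genes outside the nervous system, was looked up after the values were seen. It had 10.53 and 10.08 in control and 9.82 and 9.54 in VPA arrays, with the groups apart, -0.72 and -0.54 inside the numbers and -0.63 pooled (interval -1.11 to -0.15).

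Other genes past 0.5 that were named after their values were seen are an enzyme, a kinase and a secreted protein. Elovl2, which elongates polyunsaturated fatty acids, had 6.57 and 6.66 in control and 7.58 and 7.34 in VPA arrays, 0.84 pooled (interval 0.36 to 1.32). Prkcb, the protein kinase C beta, had 5.92 in both control arrays and 7.32 and 6.66 in VPA arrays, 1.07 pooled (interval 0.50 to 1.64). Both had groups that stood apart. Dkkl1, a secreted relative of the Dickkopf proteins, had the highest pooled difference of the 136 genes, 1.32, and the least even one. It had 5.24 and 6.59 in control and 7.35 and 7.11 in VPA arrays, with Control 1 far below the rest.

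Mitochondrial ribosomal proteins, which build the ribosome that translates mitochondrial DNA, lay below 0 in 70 of 77 members, in 58 (75.3%) in both numbers, and above 0 in both in 1. Their median was -0.19, with -0.15 and -0.19 inside the numbers, and ran from -0.31 (without Control 2) to -0.05 (without VPA 2). Mrps31 had 9.02 and 8.68 in control and 8.55 and 8.25 in VPA arrays, and Mrps30 had 8.49 and 8.11 against 7.98 and 7.75. Each VPA array lay below each control array in both, though VPA 1 was close to Control 2. The highest member, Mrpl10, stood at 0.11, and at -0.0032 without VPA 1. In the high band, which held 65 of the 77 members, 38.5% of all genes lay below 0 in both numbers.

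Cytosolic ribosomal proteins lay below 0 in both numbers in 42 of 52 members (80.8%) and above in 1, with a median of -0.14 (-0.17 and -0.11 inside the numbers). After quantile normalization, and without VPA 1, the median was -0.08. Rpl29 had 10.34 and 10.10 in control and 9.83 and 9.86 in VPA arrays, -0.37 pooled (interval -0.69 to -0.06), Rps29 had 11.33 and 10.81 against 10.79 and 10.62, and Rpl26 stood highest at 0.03, which became -0.0819 without VPA 2. Ribosomal protein genes have many processed copies, so their values can mix several loci. Of the 52 members 50 were in the high band, where 38.5% of all genes lay below 0 in both numbers.

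Splicing factors lay below 0 in both numbers in 23 of 36 members (63.9%), with a median of -0.08 (-0.03 after quantile normalization). Translation factors with their kinases and methyltransferases did so in 35 of 61, with a median of -0.05 that was -0.09 without Control 2. The tRNA synthetases did so in 18 of 34, with a median of -0.09 that was -0.0037 in number 1, -0.14 in number 2 and -0.02 without VPA 2. Proteasome subunits lay below 0 in both numbers in 24 of 48, and their median of -0.06 became 0.04 without VPA 2. One subunit stood at the other end, Psmb9 of the immunoproteasome, with 6.35 and 6.65 in control and 7.04 and 6.82 in VPA arrays. In the respiratory complexes 27 of 62 subunits lay below and 12 above 0 in both numbers, and the sign of their median of -0.03 changed without Control 1 (0.03), without VPA 2 (0.08) and after quantile normalization (0.01). Most members of each of these lists were in the high band, where 38.5% of all genes lay below 0 in both numbers. The share was 57.4% in translation factors, 52.9% in synthetases, 50% in proteasome subunits and 43.5% in respiratory subunits.

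The zinc finger (Zfp) list, 404 genes in all, also takes in genes with other symbols, such as Zbtb8a. It had 151 members (37.4%) below and 77 (19.1%) above 0 in both numbers, a median of -0.05 and 3 members past 0.5, all lower. The median was -0.0027 without Control 1, -0.02 without VPA 2 and -0.09 without Control 2. Zbtb8a had 8.001 and 7.16 in control and 6.70 and 6.64 in VPA arrays, -0.91 pooled (interval -1.91 to 0.09). Zfp57, which keeps methylation at imprinted loci, had 11.13 and 10.53 in control and 10.21 and 10.01 in VPA arrays, -0.73 pooled (interval -1.40 to -0.06). Control 1 was the highest array in both, and the groups did not overlap.

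Interferon-stimulated genes held values of both signs, with 10 of 30 above and 15 below 0 in both numbers. The median of -0.09 became 0.09 without Control 2 and 0.05 without VPA 1. Ifitm3, a membrane protein that restricts virus entry, had 9.85 and 10.75 in control and 8.57 and 10.51 in VPA arrays, with the groups overlapping and a pooled difference of -0.76 that became 0.21 without VPA 1. Ifitm1, known also from primordial germ cells, had 10.39 and 10.40 against 9.66 and 9.98, -0.57 pooled (interval -0.93 to -0.22), with the groups apart. The 2 highest members of the list were Psmb9 at 0.43 and Tap2, a peptide transporter of antigen processing, at 0.41, both with intervals that included 0.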

How the data were processed

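What the authors deposited are log2 values, 1 for each probeset of a mouse whole-transcript array from Affymetrix. Per the submitters' processing notes they came from RMA and from Affymetrix Expression Console 1.1, with settings not given in the sources used here. Of 35556 probesets, 21789 had 1 symbol in the probe annotation, 1621 had several and 12146 were not listed; only the first kind was used. For 999 genes with several probesets the one with the highest mean stood for the gene, leaving 19938 genes. The median gene had a log2 value of 5.73 to 5.79 on the VPA and control arrays. The number of arrays limits the precision.

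The comparison used limma 3.58.1 under R 4.3.3, fitting 1 mean per group to all 6 arrays with lmFit and eBayes (3 residual degrees of freedom) and adjusting over all genes by Benjamini-Hochberg at 0.05; the procedure was tested on simulated data. An exact permutation test of 2 against 2 arrays cannot go below 0.333, so none was used. Same-numbered arrays deviated together from their group means (r of 0.558, 0.693 and 0.567 for the pairs of groups), while the labels do not say that a number marks a shared culture. The replicate number was therefore also fitted as a block (2 residual degrees of freedom).

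The genes described and the lists were chosen with earlier results of these data known. Named are, in each of 3 level bands, the 5 genes with the largest and the 5 with the most negative smaller difference of both numbers. In the bands, clone-like symbols, olfactory and vomeronasal receptors, small RNAs and the listed genes of pluripotency and the cell cycle were passed over. Also named are members among the 2 highest and 2 lowest of each list described, and Actb. Pdk1 was taken out of the insulin and IGF list, 2 lists were renamed and 1 list is not reported here, all after the values were seen; genes named outside the rule are Lamp1, Rest, Elovl2, Prkcb, Dkkl1 and those beside the threshold of 0.5. Promoters come from a RefSeq table of GRCm38.p6 matched by symbol (15614 genes). Alternatives were the block, the VPA and control arrays alone, an intensity trend, median centring, quantile normalization, a level filter, the mean of probesets, other thresholds and each array left out.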

Additional observations from a re-analysis of the deposited data

How the results depend on the processing

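limma called 0 genes under every alternative fitted, each array left out included. Genes at an unadjusted p under 0.05 numbered 1438 higher and 1198 lower with the replicate block (547 and 434 without), and 237 higher and 290 lower when only genes at or above the median level were kept. Leaving out 1 array gave 198 to 727 higher and 138 to 477 lower genes; the lone array of a group is then assumed to vary like the others, and part of the difference between replicate numbers enters. With the replicate block no gene gained or lost a call. A threshold of 0.4 in both numbers gave 215 higher and 160 lower genes and a threshold of 1 gave 0 and 0, against 77 and 59 at 0.5; at or above the median level 39 were higher and 43 lower. Median centring gave 57 and 74 here, and 450 and 472 at the unadjusted p. Of 96 genes named, 6 changed sign, each only when an array was left out: Slc6a15 (-1.14 to 0.13), Atp6v0a4 (-0.542 to 0.056), Mrpl10 (-0.0032 to 0.229), Rpl26 (-0.0819 to 0.151), Actb (-0.0169 to 0.106) and Ifitm3 (-1.73 to 0.21). The cause was not tested. Medians of 19 lists changed sign in some alternative, 13 of them only without an array.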

Other observations

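The NaBu arrays share the control arrays with the VPA arrays, so the following are levels set side by side and not a test. Among the genes that stood highest with VPA, Gpm6a had log2 values of 3.83 and 4.42 with NaBu, against 3.97 and 4.48 in control and 5.11 and 5.47 in VPA arrays, and Slc16a7 had 3.41 and 3.71, against 3.30 and 3.70 in control and 4.24 and 4.47 in VPA arrays. Abca5 had 7.13 and 7.54 with NaBu, above both control arrays at 7.08 and 7.02 and below both VPA arrays at 7.83 and 7.84. Itga8 had 5.26 and 5.32 with NaBu, against 5.14 in both control arrays. Other genes higher with VPA stood further above both control arrays with NaBu. Vdr had 5.07 and 5.21 with NaBu against 4.70 and 4.72 in control, and Capn6 had 5.60 and 5.56 against 5.23 and 5.22. Slc7a7 had 9.05 and 9.12 with NaBu against 8.63 and 8.79 in control. The genes shown here are examples, and no share over all genes was taken. Among the genes that stood lowest, Cyp2b23 had 5.83 and 5.72 with NaBu, against 6.58 and 5.93 in control and 4.66 and 5.08 in VPA arrays. Zfp57, among the lowest members of the zinc finger list, had 11.18 and 10.54 with NaBu, against 11.13 and 10.53 in control and 10.21 and 10.01 in VPA arrays.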
